A study of Sus scrofa with 2 samples.

Results

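A set of 7 genes of the contractile and cytoplasmic actin apparatus was followed across the nuclei of pig kidney cortex, in tubule, endothelial, stromal and immune classes alike. They were taken by gene symbol and were 7 of the 31908 genes counted: ACTA2 (ENSSSCG00000010447), TAGLN (ENSSSCG00000015073), MYL9 (ENSSSCG00000036402), MYH11 (ENSSSCG00000000146), ACTB (ENSSSCG00000007585), ACTG1 (ENSSSCG00000028355) and ACTN1 (ENSSSCG00000036702). Kidneys came from a slaughterhouse, were flushed and kept cold, and were then perfused outside the body at body temperature and raised pressure with a salt solution free of albumin and red cells. The unperfused library was made from cortex taken before perfusion and the perfused library from cortex taken 120 min after perfusion began, both as single nuclei from frozen tissue. Neither the strain nor the age of the pigs, nor whether both pieces of cortex came from the same animal, is given in the sources used here. The study asked whether perfusion at high pressure switches on mechanosensitive transcription. With 1 library in each condition there was no replicate and no test, and each difference below compares these 2 libraries.

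Smooth muscle shortens when myosin filaments pull on actin filaments. ACTA2 encodes the smooth muscle actin, MYH11 the smooth muscle myosin heavy chain, MYL9 the regulatory light chain whose phosphorylation starts contraction, and TAGLN an actin-binding protein of the same cells, also called transgelin. In the kidney these proteins are known from arteriolar smooth muscle, pericytes and mesangial cells, and ACTA2 is the classical marker of myofibroblasts. ACTB and ACTG1 encode the cytoplasmic actins of nearly every cell, and ACTN1 encodes an alpha-actinin that cross-links actin filaments and anchors them at adhesions. Several of these genes are textbook targets of serum response factor and its coactivators of the myocardin family, which respond to the balance of free and polymerized actin.

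After filtering, 6389 unperfused and 5421 perfused nuclei remained, with medians of 3755 and 4383 UMIs (unique molecular identifiers, 1 for each RNA molecule captured). The libraries shared 14 cell barcodes, 8 of them among the nuclei kept. Nuclei were clustered without these genes and named from other markers as podocyte-like (PODO), proximal tubule-like (PT), loop of Henle-like (LOH), distal convoluted tubule-like (DCT), connecting tubule-like (CNT), principal cell-like (PC), type A and type B intercalated-like (IC-A, IC-B), endothelial-like (EC), stromal-like (STROMA), immune-like (IMM) and cycling; 4 clusters stayed unnamed. STROMA and IMM together made up 10.9% of unperfused and 26.0% of perfused nuclei. Levels are counts per 1000000 (CPM) of the summed UMIs of a class in a library, and 95% intervals are exact but allow for counting error alone, so they are too narrow where a few nuclei carry a gene. A log2 ratio is that of perfused over unperfused CPM.

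Of the smooth muscle genes, ACTA2, TAGLN and MYH11 had most of their UMIs in STROMA and IMM in both libraries, while MYL9 had 41.8% of its unperfused UMIs and 75.7% of its perfused UMIs there. ACTA2, the smooth muscle actin, had 87.4% of its unperfused UMIs and 93.8% of its perfused UMIs in those 2 classes. Its level in STROMA was 629 CPM unperfused and 1128 CPM perfused, and in IMM 184 and 565 CPM. In the other named classes ACTA2 lay between 0 and 11.9 CPM in unperfused nuclei and between 2.07 and 17.3 CPM in perfused nuclei, apart from 311 CPM in perfused cycling nuclei, and the intervals of neighbours in that lower range overlapped. The share of nuclei with an ACTA2 UMI was 39.7% and 56.8% in STROMA. In PT, which should lack the gene, it was 1.80% and 2.83% at median depths of 5289.5 and 6616 UMIs per nucleus, deeper than the 2356 and 2575 UMIs of STROMA.

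TAGLN followed the same order, with 168 CPM unperfused and 287 CPM perfused in STROMA and 137 and 223 CPM in IMM. The intervals of those 2 classes overlapped for TAGLN in the unperfused library and were apart in the perfused one. MYH11, the heavy chain of smooth muscle myosin, was the member held most tightly by STROMA, with 79.2% of its unperfused and 72.6% of its perfused UMIs there, and its level was 405 CPM unperfused and 325 CPM perfused. MYL9, the regulatory light chain, had a second site in podocyte-like nuclei. Its level in PODO was 49.6 CPM unperfused and 98.6 CPM perfused, on 21 and 22 UMIs, against 42.6 and 107 CPM in STROMA, and the interval of PODO overlapped those of IMM and STROMA in each library. Without adjustment for depth, an MYL9 UMI was found in 18.0% of unperfused and 40% of perfused podocyte-like nuclei, against 2.14% and 2.25% in PT. With every nucleus thinned to 1000 UMIs, the shares were 4.49% of 89 unperfused and 6.67% of 30 perfused nuclei in PODO. In PT the thinned shares were 0.74% and 0.59%. The other 3 smooth muscle genes had 3 UMIs or fewer per library in PODO.

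The cytoplasmic actins were present in every class. ACTB was highest in IMM, at 289 CPM unperfused and 411 CPM perfused, followed by STROMA at 168 and 342 CPM, and it was lowest among named classes in PT of the unperfused library, at 26.1 CPM, and in IC-A of the perfused library, at 16.9 CPM, in both cases with an interval that overlapped that of DCT. ACTG1 was also highest in IMM, at 299 and 532 CPM, and lowest in PT, at 64.4 and 63.3 CPM. Its level in unperfused DCT, LOH, PC, PODO and IC-A lay between 124 and 131 CPM with overlapping intervals. In the perfused library PC came next after IMM and STROMA for both actins, and its interval overlapped that of cycling nuclei for ACTB and that of STROMA for ACTG1. ACTN1 was highest in STROMA, at 421 CPM unperfused and 519 CPM perfused, followed by IMM at 198 and 309 CPM, while EC was at 122 and 154 CPM, below perfused cycling nuclei at 294 CPM, and it was lowest in PT at 4.85 and 4.97 CPM. The coding sequences of ACTB, ACTG1 and ACTA2 are near-identical, and how reads that fit more than 1 of them were assigned was not tested, so the split between these actins is uncertain to that extent. MYL9 and MYH11 each overlap another annotated locus in the pig RefSeq annotation (Sscrofa11.1), and reads shared with it were not separated here.

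**Figure D1:**
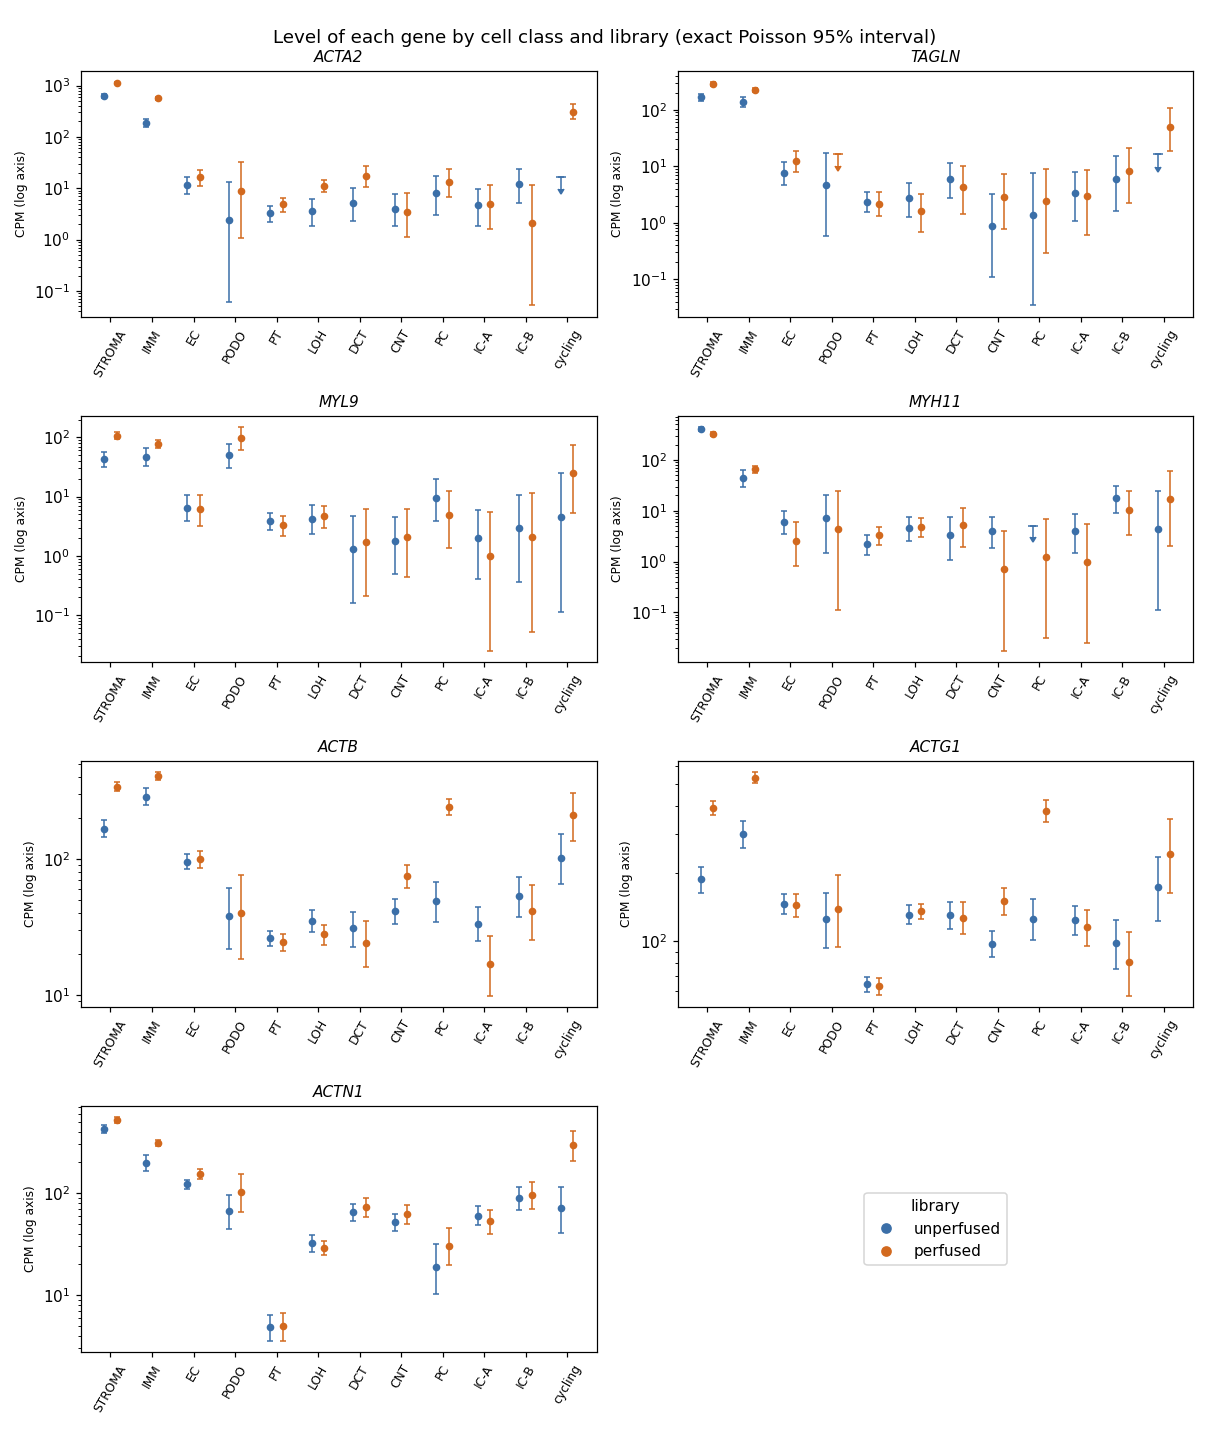
Level of each gene in CPM (log axis, with its own range for each gene) in the 12 named classes of nuclei, for the unperfused (blue) and perfused (orange) library. Points are the summed UMIs of a class, bars are exact Poisson 95% intervals and arrows are upper limits where no UMI was found; ACTA2 in STROMA stands at 629 and 1128 CPM, while ACTB in PC stands at 48.7 and 243 CPM.

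Over all nuclei together, each of the 7 genes was higher in the perfused library. ACTA2 was at 37.0 CPM unperfused and 136 CPM perfused, for a log2 ratio of 1.88 (interval 1.78 to 1.98). TAGLN followed at 1.60, MYL9 at 1.35, ACTB at 0.93, ACTN1 at 0.71, ACTG1 at 0.67 and MYH11 at 0.47. In all, 6 of them passed a CPM ratio of 1.5, which 6.55% of all genes with at least 20 UMIs did. These totals mix the level within a class with the share of nuclei in it, since STROMA and IMM were larger in the perfused library, so each class was compared separately.

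In STROMA, 5 of the 7 genes were at least 1.5 times higher in the perfused library and none was lower by that much, where 13.6% of all genes with at least 20 UMIs were higher and 15.7% lower. The median log2 ratio of the 7 was 0.84, against -0.032 over all genes. With library factors by the trimmed mean of M-values (TMM) the counts over all genes were 2044 higher and 1425 lower, in place of 1592 and 1843, and ACTA2 was at 0.96 and MYH11 at -0.20. The study examined targets of the myocardin-related coactivators in the stromal nuclei of these libraries, so the direction of such targets here is not independent evidence. ACTA2 had 739 and 2134 UMIs, for a log2 ratio of 0.84 (interval 0.72 to 0.97). TAGLN had 197 and 542 UMIs, for a log2 ratio of 0.77 (interval 0.53 to 1.02), and MYL9 had 50 and 203 UMIs, for a log2 ratio of 1.33 (interval 0.88 to 1.81). Both cytoplasmic actins were also higher, with log2 ratios of 1.03 (interval 0.80 to 1.27) for ACTB, from 168 and 342 CPM, and of 1.06 (interval 0.84 to 1.28) for ACTG1, from 188 and 392 CPM.

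ACTN1 and MYH11 departed from this. ACTN1 was higher by a log2 ratio of 0.30 (interval 0.14 to 0.46), below the 1.5-fold mark. MYH11 went the other way, at 405 CPM unperfused and 325 CPM perfused, on 476 and 614 UMIs, for a log2 ratio of -0.32 (interval -0.50 to -0.14). So the smooth muscle actin and its myosin heavy chain differed in direction over STROMA as a whole, which pools the clusters described below. In cluster 6 the log2 ratios of ACTA2 and MYH11 were 1.66 and 1.45. In cluster 12 they were -0.14 (interval -0.31 to 0.036) and -0.73.

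Ribosomal and mitochondrial transcripts and markers of other cell types also differed between the libraries in STROMA, and their part in these ratios was not tested except as given here. The median log2 ratio over ribosomal protein genes was 1.0, and these genes took 0.727% of unperfused and 1.41% of perfused UMIs, and mitochondrial transcripts took 0.179% and 0.732%. When 285 pairs of stromal nuclei were matched by ribosomal share, ACTA2 remained higher at 0.60, ACTB at 0.58 and ACTG1 at 0.62. TAGLN was then at 0.061, MYL9 at -0.23 (interval -0.86 to 0.40) and MYH11 at -0.35. Matched within clusters instead, MYL9 was at 0.94 in cluster 6 and 0.37 in cluster 12, and both intervals included 0. The 285 pairs, which pool the clusters, still differed in mitochondrial share, with a log2 ratio of 1.12. The summed level of 9 immune markers in STROMA was 754 and 1708 CPM, that of 8 endothelial markers 801 and 1377 CPM and that of 10 proximal tubule markers 2048 and 1009 CPM, with no marker at 0. Among the 58 unperfused and 51 perfused stromal nuclei with no UMI of another lineage's marker, ACTA2 was at 0.56 (interval 0.11 to 1.02) and TAGLN at -0.69 (interval -1.78 to 0.34).

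**Figure D2:**
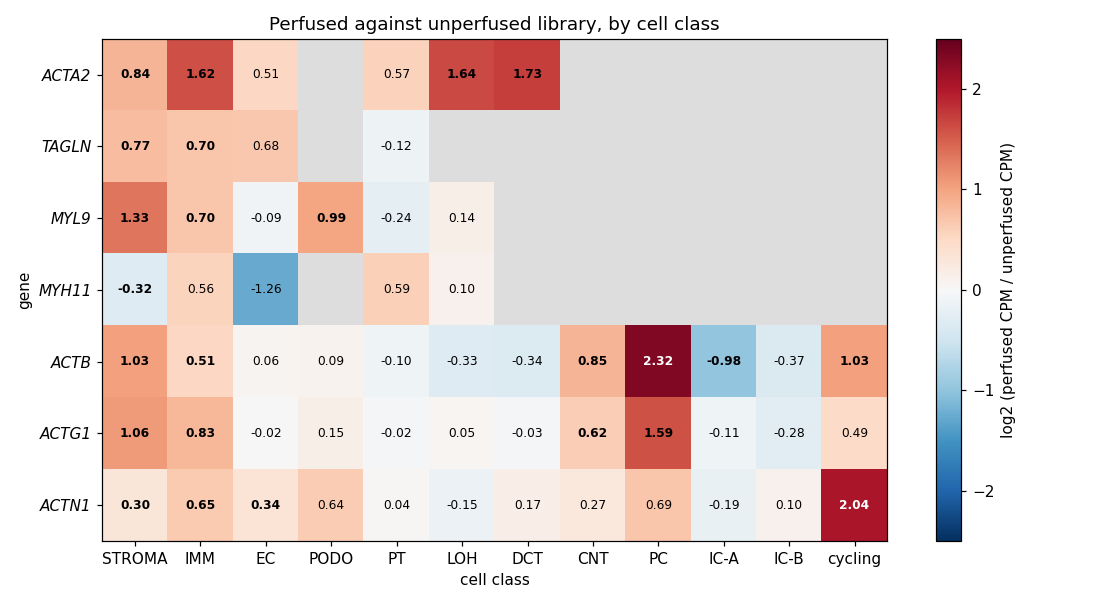
Log2 ratio of perfused over unperfused CPM for each gene (rows) in each of the 12 named classes (columns), printed in the cell and coloured from blue (lower in perfused) to red (higher). Bold values have a 95% counting interval that leaves out 0, and grey cells held fewer than 20 UMIs or none in 1 library; red fills the STROMA and IMM columns apart from MYH11 in STROMA at -0.32, and ACTB in PC reaches 2.32.

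STROMA was made of 2 clusters, and the genes behaved differently in them. Cluster 6 was led by KCND3, CYP7B1, C7 and FHL2 and held 265 unperfused and 399 perfused nuclei. Cluster 12 had ANO3, MYH11 and NLGN1 among its leading genes and held 105 and 136. All 4 smooth muscle genes were at higher levels in cluster 12 in both libraries, which describes the clusters. A coarser clustering named only the nuclei of cluster 12 as STROMA, and its IMM cluster, led by KCND3 and C7, held 586 and 1262 nuclei. Without integration of the libraries, IMM held 110 and 169 nuclei and the stromal cluster led by KCND3 held 228 and 235. An unnamed cluster with CST3 and DCN among its leading genes then held 214 and 877. The border between cluster 6 and IMM thus depended on the clustering. In cluster 6 all 7 genes were higher in the perfused library and 6 passed 1.5-fold, against 15% of all genes higher and 17.2% lower. In cluster 12, 2 were at least 1.5 times higher and 1 at least 1.5 times lower, against 16.6% and 14% of all genes.

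ACTA2 in cluster 6 was at 315 CPM unperfused and 995 CPM perfused, on 286 and 1430 UMIs, for a log2 ratio of 1.66 (interval 1.48 to 1.85). In cluster 12 it was at 1706 and 1552 CPM, on 453 and 704 UMIs, and the interval of the log2 ratio of -0.14 ran from -0.31 to 0.036. The higher ACTA2 of perfused STROMA therefore lay in cluster 6, and the levels of the clusters were closer to each other in the perfused library. The counts per nucleus showed the same. An ACTA2 UMI was found in 32.1% and 56.4% of cluster 6 nuclei, and 4 of 265 unperfused against 47 of 399 perfused nuclei held 10 or more. In cluster 12 the shares were 59.0% and 58.1%, with 16 of 105 and 26 of 136 nuclei at 10 or more UMIs. With every nucleus thinned to 1000 UMIs, the shares were 20.1% and 40.7% in cluster 6 and 46.9% and 44.9% in cluster 12.

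MYH11 had opposite directions in the 2 clusters, a difference that was not tested. In cluster 12 its level was 1649.9 CPM unperfused and 992 CPM perfused, on 438 and 450 UMIs, for a log2 ratio of -0.73 (interval -0.93 to -0.54). The share of cluster 12 nuclei with an MYH11 UMI was 44.8% and 36.0%, and the highest single nucleus held 57 and 36 UMIs. In cluster 6 its level was 41.8 and 114 CPM, on 38 and 164 UMIs in 17 and 64 nuclei, for a log2 ratio of 1.45 (interval 0.93 to 2.0). Cluster 12 held 32 of the 36 unperfused and 36 of the 51 perfused nuclei with 5 or more MYH11 UMIs, whereas nuclei with 10 or more ACTA2 UMIs numbered 22 and 99, of which 16 and 26 lay in cluster 12, 4 and 47 in cluster 6 and 2 and 23 in IMM.

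TAGLN and MYL9 were higher in both clusters of the perfused library. TAGLN was at 51.7 and 152 CPM in cluster 6, for a log2 ratio of 1.56 (interval 1.10 to 2.05), and at 565 and 712 CPM in cluster 12, for a log2 ratio of 0.33 (interval 0.049 to 0.62). MYL9 rested on 5 and 57 UMIs in cluster 6, for a log2 ratio of 2.85 (interval 1.54 to 4.53), and on 45 and 146 UMIs in cluster 12, for a log2 ratio of 0.92 (interval 0.43 to 1.44). In cluster 12 TAGLN and MYL9 were higher while MYH11 was lower. The cytoplasmic actins were higher in cluster 6, at 1.30 (interval 0.98 to 1.62) for ACTB and 1.41 (interval 1.12 to 1.71) for ACTG1, and by less in cluster 12, at 0.61 (interval 0.26 to 0.97) and 0.43 (interval 0.084 to 0.79). The log2 ratios of ACTN1 were 0.32 (interval 0.15 to 0.49) in cluster 6 and 0.25 (interval -0.14 to 0.66) in cluster 12.

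The ribosomal protein genes had median log2 ratios of 1.30 in cluster 6 and 0.41 in cluster 12. Between 176 pairs of cluster 6 nuclei matched on ribosomal share, ACTA2 was at 1.74, TAGLN at 0.87, MYL9 at 0.94 (interval -0.70 to 2.82) and MYH11 at 1.71. Between 92 pairs of cluster 12, MYH11 was at -0.69, whereas the intervals of TAGLN, at 0.039 (interval -0.30 to 0.38), MYL9, at 0.37 (interval -0.20 to 0.95), ACTB, at 0.28 (interval -0.12 to 0.69), and ACTG1, at -0.042 (interval -0.45 to 0.37), all included 0. An estimate from tubule genes gave free RNA as 34.7% of unperfused and 15.8% of perfused UMIs in cluster 6. Its subtraction left ACTA2 at 1.34, MYH11 at 1.41 and ACTN1 at -0.0099 there. Cluster 6 also held a group of nuclei, subcluster 9, with the tubule genes SLC13A3 and CUBN among its leading genes. That group had 19 unperfused and 3 perfused nuclei and a median depth of 6519.5 UMIs. Subcluster 1, with the endothelial genes TEK and FLT1 among its leading genes, held 41 and 95 nuclei, and 132 of them lay in cluster 6. Subcluster 5, of low UMI count, held 27 and 54 nuclei, and 79 of them lay in cluster 6. The part of these groups in the estimate and in the ratios of cluster 6 was not tested. Over STROMA without subclusters of low UMI count or led by genes of other classes, ACTA2 was at 0.62 (interval 0.48 to 0.76). With nuclei thinned to 1000 UMIs, MYH11 in cluster 12 was at -0.39, ACTA2 at 0.19 and ACTG1 at -0.17.

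**Figure D3:**
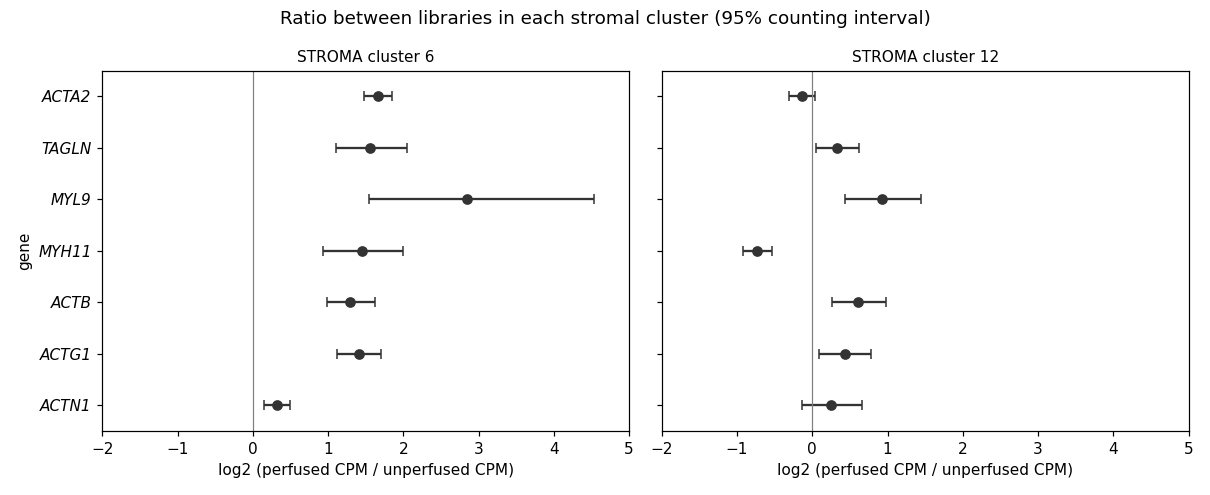
Log2 ratio of perfused over unperfused CPM of the 7 genes in stromal cluster 6 (left) and stromal cluster 12 (right), with 95% counting intervals and a line at 0. All 7 points lie above 0 in cluster 6, where ACTA2 is at 1.66, whereas in cluster 12 ACTA2 is at -0.14 and MYH11 at -0.73.

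Clustering the stromal nuclei again separated these patterns further. Subcluster 3 held 56 unperfused and 60 perfused nuclei and had KCNB2, MYOM1 and MYH11 among its leading genes. It counted 7 of 8 smooth muscle or pericyte markers but kept no name because a marker of another list was among its leading genes. ACTA2 there was at 3012 and 2949 CPM, for a log2 ratio of -0.03 (interval -0.21 to 0.16), TAGLN was at 0.42 (interval 0.13 to 0.72), MYL9 at 0.79 (interval 0.13 to 1.48) and MYH11 at -0.60 (interval -0.80 to -0.40), from 3206 and 2115 CPM. The share of its nuclei with an MYH11 UMI was 80.4% and 80%, while the median depth of its nuclei was 1964 and 2591 UMIs. Subcluster 0, the largest, was led by ART4, HPSE2 and FMO2 and had no name. ACTA2 there was at 486 CPM unperfused and 1735 CPM perfused, for a log2 ratio of 1.84 (interval 1.56 to 2.12), with 3 of 89 unperfused and 23 of 120 perfused nuclei at 10 or more UMIs, while MYH11 had 3 and 6 UMIs.

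The mesangial-like subcluster 4, with 31 and 52 nuclei, held no MYH11 UMI in either library. ACTA2 there was at 336 and 321 CPM, for a log2 ratio of -0.065 (interval -0.78 to 0.69), and ACTB was the 1 member whose interval left out 0, at 161 and 384 CPM and a log2 ratio of 1.25 (interval 0.34 to 2.28). In the smooth muscle or pericyte-like subcluster 6, with 20 and 37 nuclei, ACTA2 had 5 and 72 UMIs, for a log2 ratio of 2.25 (interval 0.96 to 3.91), and MYH11 had 0 and 28 UMIs. The fibroblast-like subcluster 8 held 24 unperfused but 2 perfused nuclei and could not be compared.

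At least 2 of the 4 smooth muscle genes were detected in the same nucleus in 6.79% of unperfused and 33.3% of perfused nuclei of cluster 6, against 47.6% and 47.8% in cluster 12. These shares go up with the detection of each gene alone, so they do not show that the genes go together. Of the MYH11-positive nuclei of cluster 12, 87.2% and 85.7% also held ACTA2, and 61.7% and 83.7% held TAGLN, on 47 and 49 nuclei. In cluster 6, ACTA2 was held by 23.5% and 57.8% of nuclei with MYH11 and by 32.7% and 56.1% of those without. ACTA2 was thus present in many stromal nuclei in which MYH11 was not detected, at median depths of 2606 and 2724 UMIs.

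**Figure D4:**
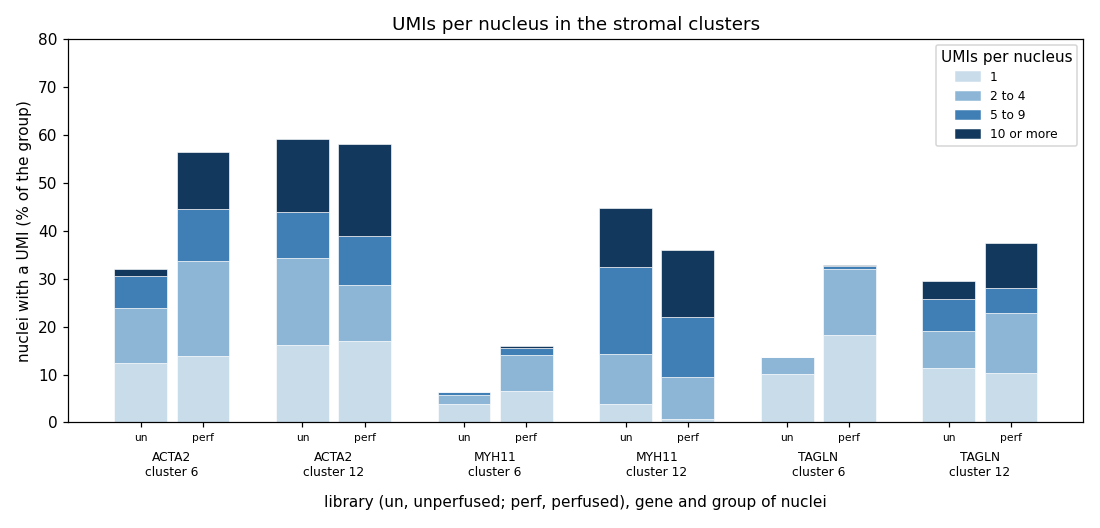
Share of nuclei (percent of the cluster) with 1, 2 to 4, 5 to 9 and 10 or more UMIs of ACTA2, MYH11 and TAGLN in stromal clusters 6 and 12, unperfused and perfused; the rest of each bar up to 100% had none and is not drawn. In cluster 6 the ACTA2 bar reaches 32.1% of unperfused and 56.4% of perfused nuclei, and in cluster 12 the MYH11 bar reaches 44.8% and 36.0%.

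IMM was the other class with smooth muscle transcripts. It held 327 unperfused and 872 perfused nuclei, and 5 of the 7 genes were at least 1.5 times higher in the perfused library, against 10.3% of all genes. ACTA2 was at 184 CPM unperfused and 565 CPM perfused, on 125 and 1333 UMIs, for a log2 ratio of 1.62 (interval 1.35 to 1.89), and was found in 18.3% and 46.9% of nuclei. ACTG1 was at 0.83 (interval 0.62 to 1.05), TAGLN at 0.70 (interval 0.38 to 1.04), MYL9 at 0.70 (interval 0.15 to 1.29), ACTN1 at 0.65 (interval 0.38 to 0.92) and ACTB at 0.51 (interval 0.28 to 0.74), whereas the interval of MYH11, at 0.56, ran from -0.0094 to 1.18.

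Finer clustering split most of IMM into 2 groups. One was led by CST3 and mitochondrial and collagen genes, with 168 and 539 nuclei, and ACTA2 was at 260.5 and 683 CPM there, for a log2 ratio of 1.39 (interval 1.07 to 1.73). The other was led by the leukocyte genes RUNX1 and ARHGAP15, with 139 and 323 nuclei, and ACTA2 was at 119 and 432 CPM, for a log2 ratio of 1.86 (interval 1.39 to 2.37). The summed level of 8 stromal markers over IMM was 1303 and 1683 CPM, against 3813 and 4169.8 CPM in STROMA, and ribosomal protein genes took 2.15% and 3.13% of UMIs. Their part in the ACTA2 level of IMM was not tested. Free RNA was estimated at 27.8% and 25.6% of the UMIs of IMM, and its subtraction left ACTA2 at 1.57, while matching on ribosomal share left ACTA2 at 1.03 (interval 0.73 to 1.34), ACTG1 at 0.29 (interval 0.037 to 0.55) and ACTB at 0.053 (interval -0.22 to 0.33). With clusters made without integration of the libraries, IMM held 110 and 169 nuclei. ACTA2 in that IMM was at 1.08 (interval 0.047 to 2.25), ACTG1 at 0.30 (interval -0.24 to 0.86) and ACTB at 0.40 (interval -0.14 to 0.96).

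Among tubule classes, both cytoplasmic actins had their highest ratios in the principal cell-like class. These cells of the collecting duct reabsorb water and sodium, and actin turnover is known to take part in moving their water channel to the membrane. ACTB was at 48.7 CPM unperfused and 243 CPM perfused, on 36 and 199 UMIs, for a log2 ratio of 2.32 (interval 1.80 to 2.87). ACTG1 was at 126 and 379 CPM, on 93 and 310 UMIs, for a log2 ratio of 1.59 (interval 1.25 to 1.94). With ACTN1, at 0.69 (interval -0.31 to 1.75), all 3 members with 20 or more UMIs passed 1.5-fold, against 9.77% of all genes higher and 22.2% lower in PC. The 4 smooth muscle genes had 11 UMIs or fewer per library there.

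The higher actin counts of PC were spread over its nuclei. An ACTB UMI was found in 34 of 176 unperfused and 81 of 151 perfused nuclei, 19.3% and 53.6%, and the richest nucleus held 2 and 9 UMIs. Both ACTB and ACTG1 were found in 7.95% and 41.7% of nuclei, and neither in 51.7% and 19.2%. In PT an ACTB UMI was found in 12.9% and 14.9% of nuclei, which were deeper. Median depths of PC were 3758 and 5383 UMIs, and with every nucleus thinned to 1000 UMIs the shares were 8.52% and 20% for ACTB and 11.4% and 29.3% for ACTG1. Unlike in STROMA, ribosomal protein genes were lower in PC, with a median of -0.94 on the log2 scale, and mitochondrial transcripts took 0.339% and 0.0953% of UMIs. Free RNA was estimated at 5.56% and 5.63% of the UMIs of PC. Between 80 pairs matched on ribosomal share, ACTB was at 2.40 and ACTG1 at 1.82.

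The neighbouring connecting tubule-like class showed a smaller difference of the same sign. ACTB in CNT was at 41.4 and 74.8 CPM, for a log2 ratio of 0.85 (interval 0.44 to 1.27), and ACTG1 at 97.5 and 150.3 CPM, for a log2 ratio of 0.62 (interval 0.35 to 0.90), so that 2 of 3 members with enough UMIs passed 1.5-fold, against 5.69% of all genes. Ribosomal protein genes were at -0.22 there. Median depths of CNT were 3999.5 and 5914 UMIs. With every nucleus thinned to 1000 UMIs, ACTB was found in 4.30% and 7.24% of CNT nuclei, at a log2 ratio of 0.69 (interval -0.33 to 1.67). ACTG1 was then found in 9.38% and 18.1%, at 0.96 (interval 0.33 to 1.58). Type A intercalated-like nuclei, which lie between the cells of PC and CNT, did not share the higher actin levels. In IC-A, ACTB was at 33.4 CPM unperfused and 16.9 CPM perfused, on 50 and 17 UMIs, for a log2 ratio of -0.98 (interval -1.87 to -0.16), and ACTG1 was at -0.11 (interval -0.45 to 0.24), where 17.7% of all genes were at least 1.5 times lower and ribosomal protein genes had a median of -0.64. The interval of ACTB in IC-A included 0 when doublets were kept, at -0.57 (interval -1.25 to 0.081), with no mitochondrial limit, at -0.69 (interval -1.50 to 0.072), when thinned, at -1.26 (interval -3.68 to 0.54), and when matched on ribosomal share, at -0.63 (interval -1.69 to 0.40). The estimate of free RNA accounts for 6.34 of its 50 unperfused and 11.5 of its 17 perfused UMIs. Subtraction of that estimate left ACTB in IC-A lower still, at -2.37 (interval -3.97 to -1.09), on few perfused UMIs. In IC-B both intervals included 0, at -0.37 (interval -1.23 to 0.46) and -0.28 (interval -0.89 to 0.32).

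**Figure D5:**
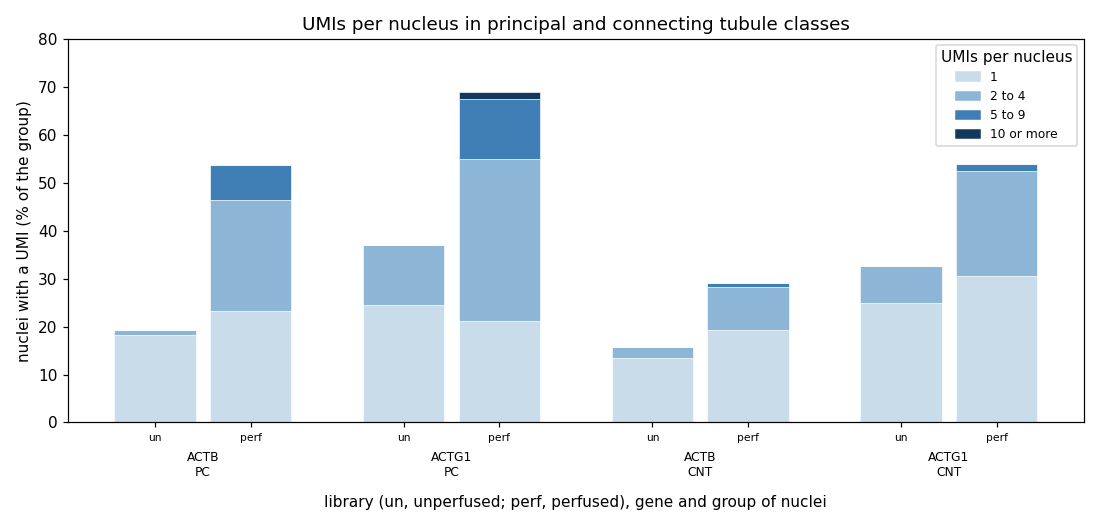
Share of nuclei (percent of the class) with 1, 2 to 4, 5 to 9 and 10 or more UMIs of ACTB and ACTG1 in principal cell-like (PC) and connecting tubule-like (CNT) nuclei, unperfused and perfused; nuclei with none are not drawn. The ACTB bar of PC reaches 19.3% of unperfused and 53.6% of perfused nuclei, and that of CNT 15.6% and 29.1%. Shares are not adjusted for depth, and perfused nuclei were deeper in both classes.

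In the remaining classes most intervals included 0. Outside STROMA and IMM, 43 pairs of gene and named class had 20 or more UMIs and some in each library. Of these, which include PC, CNT, IC-A and IC-B, 10 had an interval above 0 and 1 below. The share of all genes with such an interval was not computed, so this count has no background here. None of the intervals that left out 0 lay in PT. There MYH11 alone of 7 genes passed 1.5-fold, at 0.59 (interval -0.28 to 1.47) and against 3.56% of all genes. In PT, ACTB was at -0.099 (interval -0.37 to 0.17) and ACTG1 at -0.024 (interval -0.19 to 0.14) on 651 and 522 UMIs. In EC, TAGLN was the 1 of 7 genes past 1.5-fold upward, at 0.68 (interval -0.24 to 1.61), and MYH11 the 1 downward, at -1.26 (interval -3.06 to 0.25), against 3.86% and 16.9% of all genes. ACTN1 was higher, at 122 and 154 CPM and a log2 ratio of 0.34 (interval 0.10 to 0.57), while ACTB was at 0.065 (interval -0.21 to 0.34) and ACTG1 at -0.018 (interval -0.25 to 0.21). In PODO, MYL9 and ACTN1, at 0.64 (interval -0.22 to 1.49), were 2 of 4 genes past 1.5-fold, against 10.7% of all genes. MYL9 was at 0.99 (interval 0.059 to 1.92), on 89 and 30 nuclei, and at 0.88 with an interval including 0 when the richest nucleus of each library was left out.

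LOH and DCT had more ACTA2 in the perfused library. In LOH it had 12 and 56 UMIs, for a log2 ratio of 1.64 (interval 0.73 to 2.68), where 3.77% of all genes passed 1.5-fold, found in 1.47% and 3.98% of nuclei, and 1.46 without the richest nucleus of each library. In DCT it had 8 and 20 UMIs, for a log2 ratio of 1.73 (interval 0.48 to 3.12) where 5.99% of all genes passed 1.5-fold, but 1 perfused nucleus held 15 of the UMIs and the ratio was 0.14 without the richest ones. The share of DCT nuclei with an ACTA2 UMI was 2.56% and 4.05%, and free RNA was not told apart from expression at such shares. In the 39 and 19 cycling nuclei, ACTA2 had 0 and 37 UMIs, 33 of them in 1 nucleus, and ACTN1 was at 71.3 and 294 CPM, for a log2 ratio of 2.04 (interval 1.15 to 3.0). In the unnamed cluster 13, led by DPP10 and SLIT3, ACTB was at 1.34 (interval 0.47 to 2.26), and in the unnamed cluster 11, led by POU2F3 and SLC5A8, ACTG1 was at 0.73 (interval 0.27 to 1.22).

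Other genes of the contractile apparatus gave these values a frame. Of 24 further smooth muscle genes, 22 were found by symbol, SYNM and PLN not, and 21 had 20 or more UMIs in STROMA. There 4 of 21 were at least 1.5 times higher and 1 lower, where 13.6% of all genes were higher and 15.7% lower. The median log2 ratio of the list was 0.12, against -0.032 over all genes. DES, the muscle intermediate filament, was at 23.0 and 74.5 CPM, log2 ratio 1.70, and TPM2, a tropomyosin of smooth muscle, was at 86.8 and 196 CPM, log2 ratio 1.17. MYOCD, the coactivator myocardin that drives smooth muscle genes, was the 1 gene lower by that much, at 86.0 and 50.8 CPM, log2 ratio -0.76. CNN1, the smooth muscle calponin, was at 28.9 and 31.7 CPM, log2 ratio 0.13.

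By cluster, the counts of the smooth muscle list were these. In cluster 6, 7 of 18 were at least 1.5 times higher and 1 lower, with a median of 0.36, where 15% of all genes were higher and 17.2% lower, and the filamin FLNA was at 72.6 and 138 CPM, log2 ratio 0.93. In cluster 12, 3 of 20 were higher and 4 lower, with a median of -0.20, where 16.6% of all genes were higher and 14% lower, so the share of either direction in the list is close to that of all genes. MYOCD was at 294 and 167 CPM, log2 ratio -0.81, LPP, a protein of focal adhesions, was at 2840.2 and 1679 CPM, log2 ratio -0.76, and FLNA was at 584 and 461 CPM, log2 ratio -0.34. DES, TPM2 and the light chain MYL6 were higher in cluster 12, as TAGLN and MYL9 were, with DES at 49.0 and 163 CPM, log2 ratio 1.74, and MYL6 at 358 and 586 CPM, log2 ratio 0.71. In this cluster some contractile genes were above and others below their unperfused level.

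Of 30 further genes of the cytoplasmic actin machinery, 28 were found by symbol, MYH10 and MYL12B not, and 28 could be compared in STROMA. Their median log2 ratio was 0.38, against -0.032 over all genes. Of the 28, 9 were at least 1.5 times higher and 0 lower, where 13.6% of all genes were higher and 15.7% lower. Those higher included the actin-monomer binders TMSB4X, at 255 and 598 CPM, log2 ratio 1.23, and TMSB10, at 146 and 347 CPM, log2 ratio 1.24, as well as the filament-severing CFL1, at 20.4 and 67.7 CPM, log2 ratio 1.73. In cluster 6, 13 of 28 were higher and 1 lower, against 15% and 17.2% of all genes. In cluster 12, 6 of 26 were higher and 2 lower, against 16.6% and 14% of all genes. In PC, TMSB4X was lower, at 195 and 109 CPM, log2 ratio -0.84, and TMSB10 was lower, at 43.3 and 20.8 CPM, log2 ratio -1.06, beside higher ACTB and ACTG1. Some genes of these lists were higher in PC, with VCL, the vinculin gene, at 227 and 655 CPM, log2 ratio 1.53, ACTN4, an alpha-actinin, at 154 and 402 CPM, log2 ratio 1.38, and TPM1, a tropomyosin, at 189.5 and 486 CPM, log2 ratio 1.36. Over both lists in PC, 4 of 11 smooth muscle genes were at least 1.5 times higher and 1 lower, and 1 of 23 cytoplasmic genes were higher and 4 lower, where 9.77% of all genes were higher and 22.2% lower.

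The genes most alike in level across the 12 named classes, by the logarithm of CPM over both libraries, were found for each member among 9158 genes with at least 500 UMIs. Those nearest to ACTA2 were COL6A5, CYP7B1 and C7, with Pearson's r of 0.990, 0.988 and 0.988. Those nearest to MYH11 were GPR45, FHL1 and SPON1, with Pearson's r of 0.982, 0.977 and 0.961. For ACTB they were NR4A2, TMSB4X and BIRC2, and for ACTG1 ATP7A, NR4A2 and DOCK10. The nearest to TAGLN were FBLN5, A2M and VEGFD, to MYL9 SVEP1, COL6A1 and PRELP, and to ACTN1 LHFPL6, DNAJC14 and MAP3K8. Among the members themselves r was 0.970 between ACTA2 and TAGLN, 0.904 between ACTB and ACTG1 and 0.614 between MYH11 and ACTG1. These describe 12 points that share libraries and depth.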

How the data were processed

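Single-nucleus RNA was captured in droplets and sequenced from 1 unperfused and 1 perfused piece of pig kidney cortex. The deposited values are raw UMI counts per gene and barcode, which the authors made with Cell Ranger 5.0.1 on the Ensembl pig genome, with intron reads counted. The deposited matrices held 7179 and 6205 barcodes with 34415254 and 35525592 UMIs, before any filter of the study on nuclei.

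Nuclei were kept with 500 to 6000 genes and a mitochondrial share of UMIs up to 7%. The doublets called by Scrublet (scanpy 1.11.5), 641 and 489, were removed. The libraries were integrated in Seurat 5.3.0 under R 4.3.3 on 2000 variable genes and clustered on 15 components at a resolution of 0.5. The 7 genes and both gene lists were left out of the variable genes. A cluster was named from the list with the highest mean fold when at least 3 of its markers counted and no other list had more markers among the top 10 genes. UMIs were summed by class and library and divided by the class total (CPM). Ratios, on the log2 scale, are perfused over unperfused and have an exact conditional binomial 95% interval, levels an exact Poisson one. A count of 0 was replaced by a floor of 3 counts per library for a bound. A gene was counted as higher or lower past a CPM ratio of 1.5 with at least 20 UMIs. The interval was checked on simulated independent Poisson counts. That check covers counting error alone, not counts gathered in a few nuclei or variation between samples. Nuclei are not replicates, so no p-value was computed.

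The named genes were the 7 genes in every class, the members of both gene lists where they are described, and the 3 genes most alike each. Members and lists were chosen with earlier results of these data known. Alternatives changed the scaling (TMM of edgeR 4.0.16, size factors of DESeq2 1.42.0), the filters, doublets, clustering, integration, depth, free RNA and ribosomal share. Ribosomal matching paired nuclei of both libraries, and free RNA was estimated from markers of tubule classes outside their class. Python 3.11.15 with numpy 2.4.6 and scipy 1.17.1 was used.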

Additional observations from a re-analysis of the deposited data

Results flagged for a closer look

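MYH11 differed in direction between the stromal clusters. Its log2 ratio was -0.73 in cluster 12 and 1.45 in cluster 6, with counting intervals on opposite sides of 0. The difference was not tested, since each cluster holds 1 library per condition.

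ACTB differed in direction between a tubule class and stroma. Its log2 ratio was -0.98 in type A intercalated-like nuclei and 1.03 in STROMA, with intervals on opposite sides of 0, and this difference was not tested either. The intercalated value rests on 50 and 17 UMIs, and its interval included 0 with doublets kept, with no mitochondrial limit, when thinned to 1000 UMIs and when matched on ribosomal share.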

How the results depend on the processing

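No paired analysis was possible because each condition has 1 library, and no library could be left out for the same reason. For STROMA, 17 alternatives gave a value for each gene. ACTB, ACTG1 and ACTN1 were above 0 in all 17, MYH11 was below 0 in all 17, and ACTA2, TAGLN and MYL9 were above 0 in 16 of 17. The alternatives share the same counts, and some of their intervals included 0. For MYH11 these were no mitochondrial limit (-0.32 to 0.034), no integration (-0.34 to 0.028) and thinning (-0.50 to 0.11). For ACTN1 they were resolution 0.3 (-0.14 to 0.66) and subtraction of free RNA (-0.089 to 0.23). The same held for ACTA2 at resolution 0.3 and for TAGLN and MYL9 when matched. It also held for ACTB, TAGLN and MYL9 without nuclei with another lineage's marker. The values that moved by more than the counting interval, or changed sign, were these, and the cause was not tested unless the setting itself names fewer nuclei. At a clustering resolution of 0.3, where STROMA held the nuclei of cluster 12 alone, the log2 ratio was -0.14 for ACTA2, 0.33 for TAGLN, -0.73 for MYH11, 0.61 for ACTB and 0.43 for ACTG1. With doublets kept, the log2 ratio was -0.65 for MYH11. With no mitochondrial limit, the log2 ratio was 1.0 for ACTA2, -0.14 for MYH11 and 0.49 for ACTN1. As a mean over nuclei with a pseudocount of 1, the log2 ratio was 0.53 for TAGLN, 0.66 for MYL9, 0.57 for ACTB and 0.60 for ACTG1. After subtraction of free RNA, the log2 ratio was 0.60 for ACTA2, 0.53 for TAGLN, -0.56 for MYH11 and 0.072 for ACTN1. Without nuclei that held a UMI of another lineage's marker, the log2 ratio was 0.56 for ACTA2, -0.69 for TAGLN, -0.97 for MYH11, 0.24 for ACTB, 1.33 for ACTG1 and 0.90 for ACTN1. In nuclei thinned to 1000 UMIs, the log2 ratio was 0.71 for ACTA2 and 0.63 for ACTG1. Between nuclei matched on ribosomal share, the log2 ratio was 0.60 for ACTA2, 0.061 for TAGLN, -0.23 for MYL9, 0.58 for ACTB and 0.62 for ACTG1. Matched within clusters, MYL9 was at 0.94 in cluster 6 and 0.37 in cluster 12, and each of these intervals included 0. With the finer IMM cluster led by CST3 joined to STROMA, the log2 ratio was -0.53 for MYH11. Without subclusters of low UMI count or led by genes of other classes, the log2 ratio was 0.62 for ACTA2, 0.49 for TAGLN and 0.67 for ACTB. Genes past the mark in STROMA numbered 1592 higher and 1843 lower, 901 and 973 with at least 50 UMIs, 2452 and 3678 with no filter, 669 and 887 at a ratio of 2, and 1888 and 1438 after subtraction of free RNA. Among alternatives chosen after seeing the data, ACTA2 in cluster 6 ranged from 1.32 to 1.88, MYH11 in cluster 12 from -0.80 to -0.39, ACTB in PC from 1.57 to 2.40, ACTB in IC-A from -2.37 to -0.57, with 0 in the interval under some, and in IMM ACTA2 from 1.03 to 1.70, ACTB from 0.053 to 0.94 and ACTG1 from 0.29 to 1.19. Sign changed for ACTN1 in cluster 6 after subtraction of free RNA, at -0.0099, and for ACTG1 in cluster 12 when thinned, at -0.17, and when matched, at -0.042, and ACTA2 in cluster 12, whose interval includes 0, was above 0 with doublets kept, at 0.098, and when thinned, at 0.19. Depth limits MYL9 in cluster 6, with 5 unperfused UMIs, and ACTB in IC-A, with 17 perfused UMIs.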
